A study of Mus musculus with 564 samples.

Results

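The comparison described here set macrophages exposed to lipopolysaccharide (LPS) for 30 min directly against macrophages exposed to interleukin 4 (IL-4) for the same time. It rested on 4 of the 564 H3K27ac ChIP-seq libraries of the study, namely replicates 1 and 2 of each stimulus. All 4 came from wild type mouse bone marrow-derived macrophages (BMDMs), primary cells that were kept for 1 h with vehicle (DMSO) before LPS or IL-4 was added, each at 10 ng/mL. According to the study's methods the marrow came from male C57/BL6 mice. The labels do not tell whether the replicates were separate cultures, so the p-values below measure only the spread between replicate libraries. That spread was estimated over all 16 stimulated DMSO libraries, not over these 4 alone. Chromatin was precipitated with an antibody to histone H3 acetylated at lysine 27 (H3K27ac), and the readout was the normalized read count at each of 59190 *cis*-regulatory elements that the authors had located by their open chromatin. Unstimulated DMSO cells (UT, 2 libraries) are given alongside as a reference level and entered no test. Their titles give 0 h and their treatment label 4 h without a stimulus, so their time in culture is uncertain.

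H3K27ac marks active promoters and enhancers, and it is deposited and removed within minutes as transcription factors come and go. LPS, a component of the bacterial outer membrane, is sensed by TLR4 together with CD14 and MD-2 and signals through MyD88 and TRIF to NF-kB, AP-1 and IRF3, which drive inflammatory genes. IL-4 signals through its receptor and the JAK kinases to the latent transcription factor STAT6, which drives the genes of alternative macrophage activation.

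Some of the sequences behind the largest differences are shown first, because the recognition motifs of these factors can be read in them. They were picked for holding such a motif. Of 11 largest LPS elements examined, 4 held an AP-1 or kappaB motif. They are written 5′ to 3′ on the plus strand of mm10 (GRCm38), 100 bases around a motif close to the middle of the element, with the motif in capitals. From the elements that were higher after LPS, the ones near *Tmem123* (a kappaB motif, GGGANNTTCC, found here on the other strand, chr9:7734438-7734537) and *Tnfaip3* (an AP-1 motif, TGANTCA, chr10:19078173-19078272) are given. From the elements that were higher after IL-4, those near *Tcf7l2* (chr19:55577627-55577726) and *Zfp609* (chr9:65844651-65844750) hold the STAT6-type motif TTCNNNNGAA, and the one in *Rmi2* (chr16:10844228-10844327) holds the STAT motif with the shorter spacer, TTCNNNGAA.
Tmem123: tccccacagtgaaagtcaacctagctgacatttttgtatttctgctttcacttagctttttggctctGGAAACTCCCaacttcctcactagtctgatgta
Tnfaip3: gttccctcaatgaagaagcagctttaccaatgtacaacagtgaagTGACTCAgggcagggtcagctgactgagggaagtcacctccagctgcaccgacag
Tcf7l2: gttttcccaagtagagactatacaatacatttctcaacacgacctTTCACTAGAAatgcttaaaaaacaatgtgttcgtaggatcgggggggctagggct
Zfp609: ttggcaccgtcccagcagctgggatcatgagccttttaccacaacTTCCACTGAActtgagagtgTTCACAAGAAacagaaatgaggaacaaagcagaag
Rmi2: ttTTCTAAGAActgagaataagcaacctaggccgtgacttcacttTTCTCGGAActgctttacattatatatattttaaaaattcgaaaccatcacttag

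The promoters of 3 genes of the lists below, from RefSeq (GRCm38.p6), are shown in the same way. Their elements differed between the stimuli, and they were picked for holding a motif just upstream of the start. Other promoters with large differences did not hold the motif of their direction there. *Dusp2*, *Nfkbib* and *Mgl2* had none of the motifs searched (kappaB, AP-1, ISRE, STAT and STAT6-type). *Nfkbie* had only an AP-1 motif, and *Socs1* had only the ISRE. Each run is the 250 bases before the annotated start in the direction of the gene. *Ifnb1* (chr4:88522795-88523044, minus strand) has a kappaB motif, *Cxcl10* (chr5:92348890-92349139, minus strand) has a kappaB, an AP-1 and an interferon-response motif (ISRE, GAAANNGAAA), and *Pdcd1lg2* (chr19:29410669-29410918, plus strand) has a STAT6-type motif. Among 32851 RefSeq promoters, 1.21% hold the kappaB motif, 6.75% the AP-1 motif, 2.98% the ISRE and 5.85% the STAT6-type motif in the same 250 bases on either strand.
Ifnb1: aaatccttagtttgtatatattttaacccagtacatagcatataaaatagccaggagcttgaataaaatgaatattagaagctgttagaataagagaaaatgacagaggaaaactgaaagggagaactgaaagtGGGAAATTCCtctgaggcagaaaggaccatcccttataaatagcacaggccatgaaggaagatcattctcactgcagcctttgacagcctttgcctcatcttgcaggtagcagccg
Cxcl10: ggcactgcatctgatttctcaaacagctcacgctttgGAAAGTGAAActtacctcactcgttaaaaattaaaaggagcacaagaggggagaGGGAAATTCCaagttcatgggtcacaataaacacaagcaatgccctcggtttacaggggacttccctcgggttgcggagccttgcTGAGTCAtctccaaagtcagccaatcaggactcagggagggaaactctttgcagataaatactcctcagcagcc
Pdcd1lg2: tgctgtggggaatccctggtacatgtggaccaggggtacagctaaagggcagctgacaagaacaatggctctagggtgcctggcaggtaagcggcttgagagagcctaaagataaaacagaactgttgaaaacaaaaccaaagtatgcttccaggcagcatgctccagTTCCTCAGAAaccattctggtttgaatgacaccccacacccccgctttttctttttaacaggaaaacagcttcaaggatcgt

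Acetylation differed between the stimuli at a large share of the catalog after 30 min. An element was called when its log2 difference (LPS minus IL-4, on normalized read counts plus 5) exceeded 1 in either direction at an adjusted p under 0.01 in limma. In all, 14777 of 59190 elements were called (25.0%). Acetylation was higher after LPS at 6302 elements (10.6%) and higher after IL-4 at 8475 (14.3%). The excess toward IL-4 depended on the scaling. With quantile normalization 7251 were higher after LPS and 7351 after IL-4, and with median rescaling 6888 and 7702. The median difference over all elements was -0.06. Among the called elements, both libraries of the higher group exceeded both of the other at 6300 of 6302 and at 8470 of 8475. The calls were made on these same libraries, so this separation was favoured in advance. It was also found at 24738 of the 44413 elements that were not called (55.7%). The difference passed 2 on the log2 scale at 1660 elements higher after LPS and 2034 higher after IL-4, and it passed 4 at 28 and 32. In chromatin from a whole culture, more cells with a mark and more of the mark per cell cannot be told apart.

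**Figure D1:**
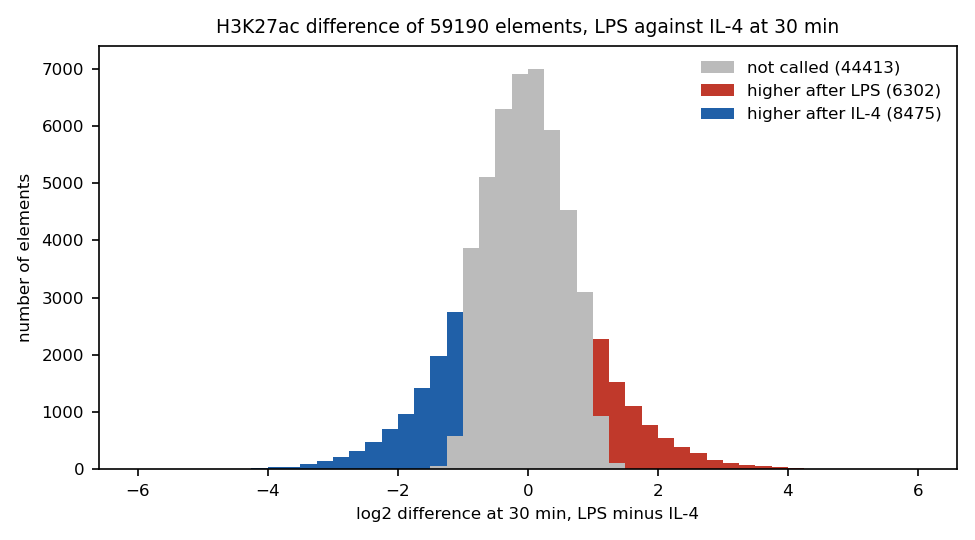
Number of elements (vertical axis) by log2 difference of H3K27ac between LPS and IL-4 at 30 min (horizontal axis, bins of 0.25). Red and blue bars are elements called higher after LPS (6302) and after IL-4 (8475), and grey bars are the 44413 that were not called.

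Depth was estimated from the spacing of the values. About 2350000 and 4330000 reads of the LPS libraries and 4660000 and 2700000 of the IL-4 libraries (replicates 1 and 2) fell in the elements. Replicates correlated at r = 0.959 for LPS and r = 0.967 for IL-4 across elements on the log2 scale, whereas an LPS and an IL-4 library correlated at 0.808 to 0.829. The values carry no interval of their own, because the files hold normalized read counts. The macrophage genes *Spi1* (the master factor PU.1), *Csf1r* (the M-CSF receptor) and *Cd68* had strongly acetylated promoter elements in all 4 libraries, with 1284 as their lowest value. Some other genes of the macrophage list described below, such as *Mertk*, had far lower values. Markers of other cell types were mostly without a promoter element, which was found for 2 of 8 T cell genes, 3 of 7 B cell genes, 6 of 9 neutrophil genes, 3 of 8 fibroblast genes, 1 of 6 mast cell and basophil genes and 1 of 6 erythroid genes. Summed over the list, the T cell elements had 213 and 285 after LPS and 358 and 334 after IL-4, the neutrophil elements had 265 and 276 after LPS and 456 and 358 after IL-4, and the fibroblast elements had 67 and 64 after LPS and 8 and 9 after IL-4. The B cell elements had 51 and 67 after LPS and 59 and 73 after IL-4. The mast cell and basophil element had 15 and 9 after LPS and 13 and 5 after IL-4, and the erythroid element 94 and 103, and 113 and 129. Single members were nearly empty, as the B cell factor *Pax5* and the fibroblast receptor *Pdgfra*, which stood between 0 and 3 in the 4 libraries. *Prtn3*, a neutrophil granule protease, was higher after IL-4 (28 and 37 after LPS, 151 and 111 after IL-4), and both *Camp*, a granule peptide (36 and 46 against 3 and 5), and *Pdgfrb*, a growth factor receptor (56 and 60 against 7 and 2), were higher after LPS. The part of such cells in the other results was not tested.

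The level in UT cells differed between the directions. Elements that were higher after LPS had median counts of 99 and 111 in the LPS libraries, 28 and 26 in the IL-4 libraries and 26 and 24 in UT cells. Elements that were higher after IL-4 had medians of 36 and 40 in the LPS libraries, 134 and 129 in the IL-4 libraries and 86 and 82 in UT cells, so UT cells lay between the stimuli. Both sets lay mostly away from gene starts. An element whose centre lies within 1 kb of a start of a protein-coding gene is called a promoter element below. Of 11404 promoter elements, 582 (5.1%) were higher after LPS and 1007 (8.83%) after IL-4. Of the 11662 elements more than 50 kb from a start, 13.1% and 17.2% were called in these directions. Called promoter elements also differed by less, with a median absolute difference of 1.38 against 1.59 at the other elements for LPS and 1.33 against 1.56 for IL-4.

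Motif shares differed between the directions. The kappaB motif lay in the central 300 bases of 5.68% of elements higher after LPS, 1.04% of those higher after IL-4 and 2.22% of all elements. The AP-1 motif lay in 28.4%, 16.1% and 20.2% of the same sets. The STAT6-type motif showed the reverse order, with 7.41%, 19.8% and 9.22%, and the STAT motif was found in 9.43%, 13.6% and 9.40%. Where the difference passed 3, the kappaB motif was present in 11.2% of 295 elements higher after LPS and the STAT6-type motif in 40.8% of 333 elements higher after IL-4, whereas the AP-1 motif was present in 22.4% of the former. The ISRE hardly varied (5.51%, 5.79% and 5.14%), and GGAAGT, the core of PU.1 sites, was found in 35.4%, 43.6% and 37.3%. Both strands were searched, motifs were counted separately and may overlap, and these shares are descriptions with no test.

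Of the elements with a mean of at least 50 in the higher group, the one with the largest difference toward LPS lay in an intron of *Ptges* (chr2:30924331-30926279, mm10), which encodes the synthase that makes prostaglandin E2 downstream of cyclooxygenase. It had 264 and 280 normalized reads after LPS, 1 and 7 after IL-4, and 17 and 8 in UT cells. The log2 difference was 5.03 (SE 0.24, limma adjusted p = 2.07e-18), and it stayed at 5.22, 5.31 and 5.30 at 1, 2 and 4 h. An intronic element of *Traf1* (chr2:34952999-34955453), an adaptor of TNF receptor signaling and a classical NF-kB target, had 198 and 175 after LPS against 8 and 0 after IL-4, a difference of 4.57 (SE 0.311).

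Several of the 12 largest LPS elements lay far from the genes of known LPS signaling that they were nearest to. The element 62468 bases from the start of *Tnfaip3* (chr10:19077004-19079246), which encodes the NF-kB inhibitor A20, had 462 and 460 after LPS and 17 and 19 after IL-4, a difference of 4.34 (SE 0.199). At the element 75176 bases from *Jak2* (chr19:29175791-29177514), a kinase of cytokine receptors, 145 and 220 stood against 4 and 2. The element 39926 bases from *Fos* (chr12:85512882-85514750), a subunit of AP-1, had 503 and 609 after LPS and 25 and 21 after IL-4, whereas the *Fos* promoter itself was not called. The others were nearest to *Alpk2*, *A730009L09Rik*, *Arhgap22*, *Tmem123*, *Ifitm10*, *Col27a1* and *Fam129c*, with differences of 4.28 to 4.64. That both LPS libraries lay above both IL-4 libraries was a condition for entering these 12. No IL-4 or UT value was above 35.

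Toward IL-4, 3 elements nearest to *Ang6* (-5.82), *Ang5* (-5.14) and *Zfp951* (-4.87) were passed over because 50% or more of their sequence, read in stretches of 51 bases, is repeated elsewhere in mm10. The largest difference among the others lay in an intron of *Rmi2* (chr16:10843311-10845239), which encodes a subunit of the BLM helicase complex. This element had 25 and 7 normalized reads after LPS, 607 and 590 after IL-4 and 56 and 39 in UT cells, a difference of -4.99 (SE 0.209, limma adjusted p = 7e-20). At this element the difference was -2.27 at 1 h and 0.11 at 2 h. The element 82105 bases from *Socs1* (chr16:10701759-10705104, in an intron of *Clec16a*), the feedback inhibitor of JAK kinases, had 728 and 720 after IL-4 against 20 and 24 after LPS, a difference of -4.76 (SE 0.15) that was still -3.38 at 4 h.

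The other IL-4 elements of this set were nearest to *Gsdmc*, *Gtpbp4*, *Msx3*, *Myc*, *Zfp609*, *Gprc5c*, *Enthd1*, *Tcf7l2*, *Gm5150* and *Pan3*, with differences of -4.79 to -4.26. The *Myc* element lay 821343 bases from the start of this growth regulator (chr15:62807211-62810319) and had 425 and 489 after IL-4, 13 and 15 after LPS and 16 and 16 in UT cells. The *Tcf7l2* element (chr19:55576686-55578646), assigned to a transcription factor of Wnt signaling, had 361 and 360 after IL-4, 18 and 9 after LPS and 7 and 12 in UT cells. Except at the *Socs1* and *Tcf7l2* elements, both LPS libraries lay below both UT libraries too, as at *Enthd1*, where 13 and 4 after LPS stood against 60 and 61 in UT cells. Of the 12 sequences, 9 held a STAT or STAT6-type motif in their central 300 bases, against 1 of 11 LPS elements examined. An AP-1 or kappaB motif was found in 4 of those 11 LPS elements and in 2 of the 12 IL-4 elements. Over all elements, 9.40% held the STAT, 9.22% the STAT6-type, 20.2% the AP-1 and 2.22% the kappaB motif.

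**Figure D2:**
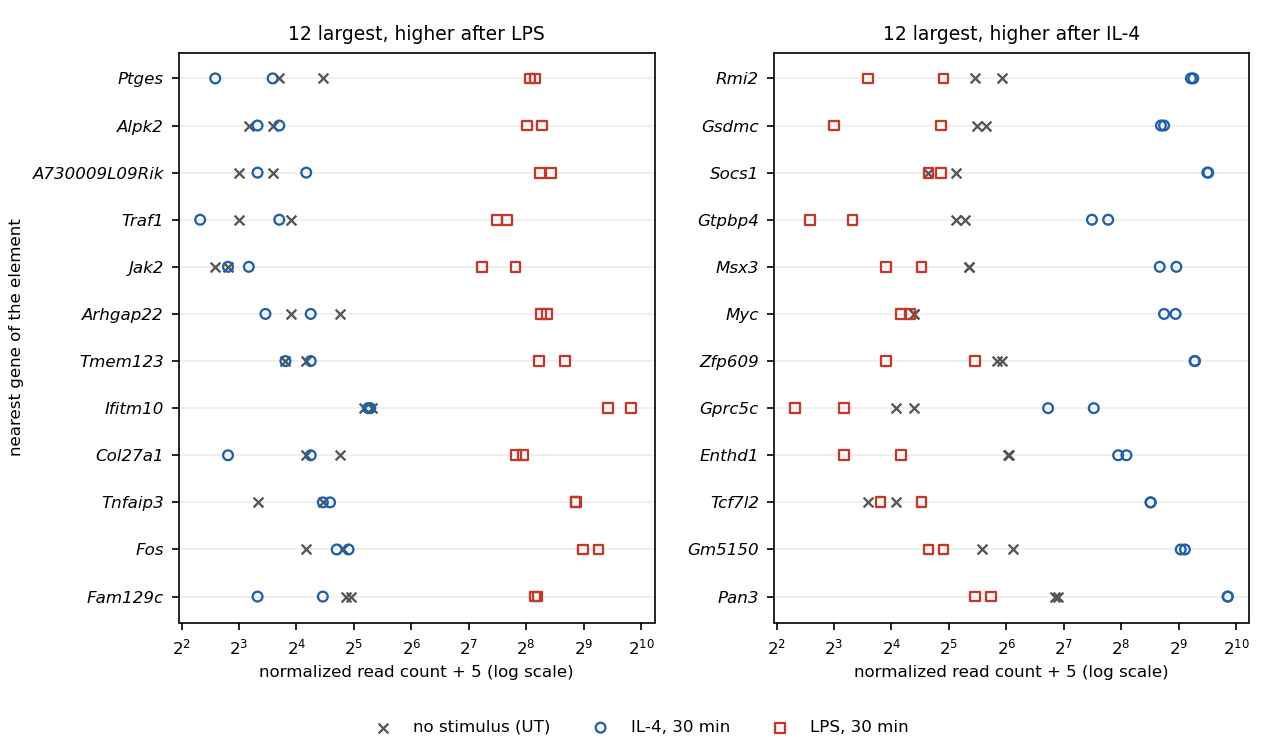
Normalized read counts plus 5 (horizontal axis, log scale) of the 12 elements with the largest difference in each direction (at most 1 per nearest gene, with a mean of at least 50 in the higher group, and without 3 repeat-rich elements higher after IL-4), labelled by nearest gene, with 1 symbol for each library. LPS (red squares) and IL-4 (blue circles) do not overlap because the elements were chosen on that condition. Unstimulated cells (crosses) lie near IL-4 in the left panel and mostly between the stimuli in the right panel.

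The study had chosen an LPS-activated and an IL-4-controlled region for quantitative PCR, so their direction here is not independent evidence. The LPS region lies in an intron of *Fpr3* (chr17:17898654-17902758), a formyl peptide receptor, and had 787 and 778 after LPS and 72 and 49 after IL-4, a difference of 3.61 (SE 0.167). The IL-4 region lies 2205 bases from *Il1rl2* (chr1:40321234-40323610), the receptor of IL-36, and had 30 and 25 after LPS and 234 and 266 after IL-4, a difference of -2.97 (SE 0.235).

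Promoter elements of the genes that carry the LPS signal and of their targets were next described list by list, taking for each gene the element nearest to one of its starts with its edge within 1 kb. For every list below, the shares to compare with are 5.1% toward LPS and 8.83% toward IL-4 over all promoter elements. These shares take elements by their centre and the lists by their edge, so the centre of a listed element can lie farther from the start. Elements farther from a start were called at 11.5% to 13.1% toward LPS and 14.8% to 17.2% toward IL-4, by distance. Of 21 genes of the TLR4 complex and its adaptors, 6 were higher after LPS and 0 after IL-4 in limma, with 2 toward IL-4 at an unadjusted p under 0.05 (median 0.70, against -0.10 over all promoter elements, of which 5.1% and 8.83% were called in these directions). *Ikbkb*, which encodes the catalytic IKK beta subunit that releases NF-kB, had 157 and 213 after LPS and 31 and 31 after IL-4 (2.38). *Tab2*, the adaptor of the TAK1 kinase, had 295 and 303 against 61 and 56 (2.26). The kinase gene *Ikbke* reached 1.502 and the IRAK family gene *Irak2* 1.13, a call lost without replicate 2 of either stimulus. The receptor gene itself lay the other way without passing the threshold of 1: *Tlr4* had 475 and 541 after LPS and 1064 and 913 after IL-4 (-0.95, limma adjusted p = 3.41e-09), with 867 and 853 in UT cells. It passed the threshold with quantile normalization (-1.12), without replicate 2 of IL-4 (-1.06) and without replicate 2 of LPS (-1.05). At 8 of the 9 other elements nearest to *Tlr4* acetylation was higher after IL-4. *Cd14* (0.93) and *Myd88* (0.79, in an element shared with the start of *Acaa1a*) were not called, although *Cd14* passed with median rescaling (1.005) and without replicate 2 of IL-4 (1.005). *Ly96*, which encodes MD-2, had 510 and 561 against 547 and 506. Of the 98 other elements nearest to genes of this list, 19 were higher after LPS and 19 after IL-4.

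Of 16 promoters of NF-kB genes, 9 were higher after LPS and 0 after IL-4 in limma, where 0 lay toward IL-4 at an unadjusted p under 0.05 (median 1.04). *Nfkbie*, which encodes an inhibitor that holds NF-kB in the cytoplasm, had 1031 and 1192 after LPS and 207 and 160 after IL-4 (2.57, SE 0.116, limma adjusted p = 5.02e-19). *Nfkbib*, another inhibitor of this family, had 1170 and 1204 against 210 and 188 (2.55). The subunit genes *Relb* (2.18) and *Nfkb2* (1.98) of the alternative NF-kB dimer, and *Nfkbiz* (1.92), a nuclear cofactor, were likewise higher. *Rela* had 1.07, a call lost with quantile normalization, and *Tnfaip3* 1.00, the latter at the threshold and not called with a pseudocount of 20, with quantile normalization or without replicate 2 of either stimulus. The best known inhibitor, *Nfkbia* (IkB alpha), had 1084 and 962 after LPS and 1098 and 1084 after IL-4, with 758 and 816 in UT cells, and *Nfkb1* had a difference of -0.31. Of the 163 other elements nearest to genes of this list, 67 (41.1%) were higher after LPS and 21 (12.9%) after IL-4.

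Among the promoters of 19 of 20 inflammatory cytokines that had a promoter element, 10 were higher after LPS and 1 after IL-4 (median 1.12). *Ifnb1*, the type I interferon that LPS induces through TRIF and IRF3, had 223 and 273 after LPS, 20 and 12 after IL-4 and 31 and 30 in UT cells (3.61, SE 0.246). *Il12b*, the shared subunit of IL-12 and IL-23, had 86 and 115 against 14 and 16 (2.39). The growth factor *Csf2* (41 and 30 against 1 and 5) and the cytokine *Lif* (66 and 46 against 13 and 7) were higher at low counts. *Il1b* had 698 and 913 against 241 and 242 (1.70). In contrast, the classical early cytokine *Tnf* had 944 and 1091 after LPS and 589 and 581 after IL-4, a difference of 0.79 that did not reach the threshold. *Il6* had 117 and 106 against 87 and 71 (0.48), and *Il10*, an anti-inflammatory cytokine, had 368 and 343 against 352 and 336. *Edn1*, the gene of the vasoconstrictor endothelin, was the exception, with 38 and 55 after LPS and 148 and 153 after IL-4 (-1.61). Elements away from these promoters were higher after LPS at 67 of 132 and after IL-4 at 11.

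Chemokine promoters included some of the largest differences and several that were not called. Of 16 promoters (17 genes), 7 were higher after LPS and 0 after IL-4 in limma, with 2 toward IL-4 at an unadjusted p under 0.05. *Ccl5*, which attracts T cells and monocytes, had 1163 and 1381 after LPS, 87 and 80 after IL-4 and 98 and 80 in UT cells (3.85, SE 0.131, limma adjusted p = 4.32e-22), the largest difference of all listed promoters. *Cxcl10*, a chemokine of the interferon response, had 645 and 691 against 87 and 75 (2.97). *Ccrl2* (2.37), *Cxcl1* (2.17) and *Cxcl2* (2.09), the last pair being neutrophil attractants, followed. The monocyte attractants *Ccl3*, *Ccl4* and *Ccl2* were not called. *Ccl3* had 655 and 781 against 597 and 602, *Ccl4* had 757 and 836 against 735 and 741, and *Ccl2* had 213 and 189 after LPS and 244 and 261 after IL-4, with 108 and 98 in UT cells. Among 47 other elements nearest to chemokine genes, 13 were higher after LPS and 5 after IL-4.

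Transcription factors of the immediate early response were called in part. Of 24 promoters, 6 were higher after LPS and 1 after IL-4, beside 5.1% and 8.83% of all promoter elements. *Nr4a1*, an orphan nuclear receptor, had 315 and 427 after LPS and 44 and 54 after IL-4 (2.79), *Egr3* had 81 and 112 against 15 and 12 (2.44), and *Maff*, a small Maf protein, had 772 and 802 against 154 and 148 (2.34). The AP-1 gene *Fosl1* reached 2.01 and *Egr1* 1.17. *Klf2*, which restrains inflammatory genes, had 86 and 91 after LPS and 220 and 183 after IL-4 (-1.14), a call that was lost with quantile normalization. *Fos* had 470 and 478 against 495 and 414, and *Jun* a difference of -0.44. *Egr2* had 754 and 759 after LPS, 737 and 743 after IL-4 and 211 and 219 in UT cells. Away from the promoters, 53 of 289 other elements (18.3%) were higher after LPS and 42 (14.5%) after IL-4, beside 10.6% and 14.3% of all elements.

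Feedback regulators of signaling and of mRNA decay had 8 of 24 promoters higher after LPS and 1 after IL-4. *Dusp2*, a nuclear phosphatase of MAP kinases, had 904 and 1037 after LPS and 86 and 71 after IL-4 (3.55, SE 0.126). *Dusp8*, another MAP kinase phosphatase, had 234 and 244 against 45 and 52 (2.19). *Gadd45b*, a stress sensor, differed by 1.68 and *Ptgs2*, the inducible cyclooxygenase, by 1.49. *Zfp36l2*, a protein that destabilizes mRNAs, was higher after IL-4 (165 and 169 against 433 and 419, -1.33) and had 562 and 633 in UT cells. The most acetylated member, *Zfp36* (tristetraprolin), had 3425 and 3856 against 2671 and 2559 (0.47), and *Dusp1* had 198 and 145 against 154 and 160, in an element nearest to *Ergic1*. The 326 other elements nearest to these genes included 63 (19.3%) higher after LPS and 56 (17.2%) after IL-4, beside 10.6% and 14.3% of all elements.

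**Figure D3:**
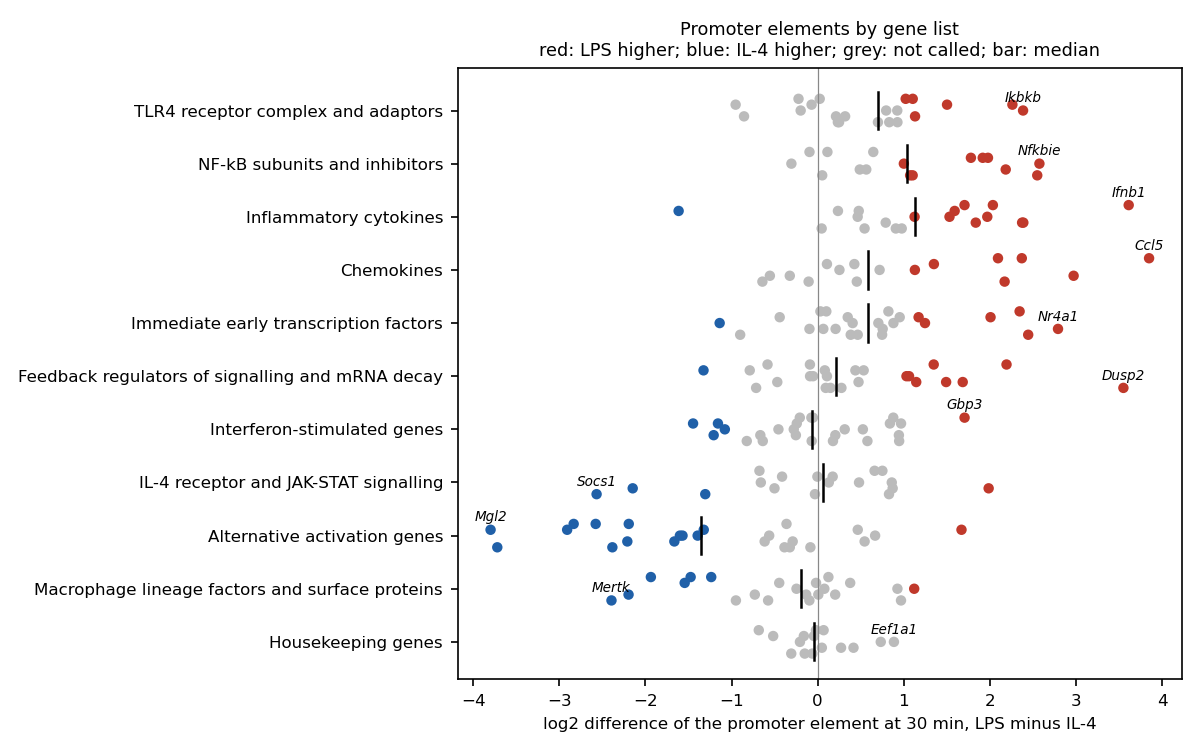
Log2 difference between LPS and IL-4 at 30 min (horizontal axis) of the promoter elements of 11 gene lists (rows), with 1 point per gene and the median as a bar. The largest difference of each list is named. NF-kB genes have 9 of 16 points in red and alternative activation genes 13 of 24 in blue, whereas housekeeping genes have none in colour.

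Interferon-stimulated genes, which respond to the secreted interferon that LPS induces, were mostly not called at 30 min. Of 26 promoters only *Gbp3*, a guanylate binding protein, was called higher after LPS (548 and 598 against 200 and 148, 1.71), and 4 were higher after IL-4, beside 5.1% and 8.83% of all promoter elements. The number toward LPS was 5 without replicate 1 of IL-4, 3 without replicate 1 of LPS, and 4 with quantile normalization or median rescaling. The median of the list was -0.07, and it was 0.019 without replicate 1 of IL-4 and 0.086 without replicate 1 of LPS. Those higher after IL-4 included *Ifit2* (36 and 27 after LPS, 107 and 82 after IL-4, -1.45), the transcription factor gene *Irf7* (188 and 202 against 428 and 487, -1.21) and *Stat2* (137 and 213 against 389 and 386, -1.16). UT cells had 92 and 77 at *Ifit2* and 228 and 231 at *Irf7*. The call at *Stat2* was lost without replicate 1 of LPS. *Isg15* (0.84) and *Mx1* (-0.82) were not called, although *Isg15* passed with quantile normalization (1.02) and without replicate 1 of LPS (1.11). Of 75 other elements of the list, 8 were higher after LPS and 4 after IL-4. At 1 h, 9 of these 26 promoters were higher after LPS, and at 2 h and at 4 h it was 23. Over all elements, the shares toward LPS at these times were 15.7%, 19.2% and 17.9%.

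Genes of the IL-4 receptor and JAK-STAT pathway included 3 of 18 promoters (19 genes) higher after IL-4 and 1 higher after LPS, beside 8.83% and 5.1% of all promoter elements. The median of the list was 0.063, and it was -0.0072 without replicate 2 of IL-4. Its 143 other elements included 34 higher after IL-4 and 26 higher after LPS. *Socs1* had 193 and 210 after LPS, 1160 and 1277 after IL-4 and 251 and 274 in UT cells (-2.57, SE 0.0942, limma adjusted p = 3.47e-21). *Socs2*, a further feedback inhibitor, had 28 and 36 against 163 and 153 (-2.15), and *Stat5b* had 127 and 133 against 332 and 325 (-1.30). *Il2rg*, which encodes the common gamma chain with which the type I IL-4 receptor is built, was higher after LPS instead (277 and 295 against 69 and 68, 1.98). The receptor chain gene *Il4ra* (-0.66), the transcription factor gene *Stat6* (0.87) and *Socs3* (0.86) lay under the threshold. *Cish*, a STAT target of the SOCS family, had 244 and 297 after LPS and 296 and 256 after IL-4, with 68 and 73 in UT cells, and its sign depended on the scaling.

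The genes of alternative activation showed the reverse picture of the NF-kB list, with 13 of 24 promoters (31 genes) higher after IL-4 and 1 after LPS (median -1.36). *Mgl2*, a macrophage lectin, had 33 and 36 after LPS, 564 and 524 after IL-4 and 95 and 78 in UT cells (-3.80, SE 0.203). *Arg1*, the arginase that marks this state in mice, had 46 and 43 against 692 and 604, with 123 and 141 in UT cells (-3.72, SE 0.18, limma adjusted p = 2.96e-18). *Clec10a*, a related lectin, had 41 and 36 against 325 and 317 (-2.91), and the eosinophil attractant *Ccl24* had 23 and 16 against 178 and 158 (-2.83). *Pdcd1lg2*, which encodes the checkpoint ligand PD-L2, had 23 and 13 against 103 and 122, with 6 and 8 in UT cells (-2.38). The mannose receptor gene *Mrc1* had 79 and 142 against 535 and 473 (-2.19). At *Arg1*, *Mgl2*, *Clec10a*, *Ccl24* and *Mrc1* both LPS libraries lay below both UT libraries and both IL-4 libraries above them.

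Some well known members of that list were not called at their promoters. *Irf4*, a factor of the alternative program, had 61 and 54 after LPS and 104 and 54 after IL-4, *Pparg* a difference of -0.62 and *Klf4* one of -0.29. Elements away from the start were called. The element of *Irf4* with the largest difference, 34398 bases from its start (chr13:30713904-30715753), had 23 and 19 after LPS and 310 and 325 after IL-4 (-3.64), and 9 of 13 other elements of *Pparg* and 16 of 33 of *Klf4* were higher after IL-4, with 0 higher after LPS at both. Over the whole list, 114 of 201 other elements (56.7%) were higher after IL-4 and 13 (6.47%) after LPS. *Ccl22*, a chemokine, was the member higher after LPS (38 and 55 against 10 and 12, 1.67), a call that did not hold without replicate 2 of LPS.

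Genes of macrophage identity were mainly lower after LPS than after IL-4 where they differed, with 6 of 22 promoters higher after IL-4 and 1 after LPS (median -0.19). The number toward LPS was 2 without replicate 1 of either stimulus and 3 with median rescaling. Of 251 other elements, 50 (19.9%) were higher after IL-4 and 28 (11.2%) after LPS, beside 14.3% and 10.6% of all elements. *Mertk*, a receptor for the uptake of dying cells, had 53 and 33 after LPS, 282 and 207 after IL-4 and 218 and 234 in UT cells (-2.39). *Itgam*, which encodes CD11b, had 124 and 144 against 623 and 637, with 666 and 606 in UT cells (-2.20). The lineage factors *Maf* (-1.54) and *Cebpa* (-1.24) and the Fc receptor gene *Fcgr1* (-1.47) had the same direction. *Csf2ra*, a GM-CSF receptor chain, was higher after LPS (614 and 625 against 325 and 245, 1.12), a call lost without replicate 2 of IL-4. *Adgre1*, which encodes F4/80, had -0.95 (-1.08 and called with quantile normalization), and *Spi1* had 1709 and 1829 against 1671 and 1573. Of 15 housekeeping promoters 0 were called in limma, while 3 lay toward LPS and 3 toward IL-4 at an unadjusted p under 0.05. With quantile normalization, and without replicate 1 of IL-4, 1 was called higher after LPS. The housekeeping differences ran from -0.68 to 0.89, with *Actb* at -0.31 and *Gapdh* at -0.52.

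How long a 30 min difference lasted was read from the same contrast at later times, which shares no library with it. Of the 6302 elements higher after LPS at 30 min, 4863 (77.2%) were called the same way at 1 h, 4261 (67.6%) at 2 h and 3893 (61.8%) at 4 h, and 1, 41 and 51 were called the other way. Of the 8475 elements higher after IL-4, 5852 (69.1%), 5253 (62.0%) and 4646 (54.8%) were called the same way and 21, 377 and 430 the other way. Over all elements, 15.7%, 19.2% and 17.9% were higher after LPS at 1, 2 and 4 h, and 14.2%, 16.5% and 15.1% higher after IL-4. Across elements, the 30 min difference correlated at r = 0.806 with that at 1 h, 0.655 at 2 h and 0.602 at 4 h, over 59190 points that share their libraries within each time. A call in all 4 time points was found for 3416 elements higher after LPS and 3928 higher after IL-4.

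The difference at 30 min was then tested directly against the difference at 4 h. This interaction was called at 10376 elements (17.5%). Of the elements higher after LPS at 30 min, 938 (14.9%) stood further toward LPS at 30 min than at 4 h and 750 (11.9%) less far. Of those higher after IL-4, 2107 (24.9%) stood further toward IL-4 at 30 min than at 4 h and 431 (5.09%) less far. The 938 and 2107 include 51 and 430 elements called the other way at 4 h. All these elements were selected on their 30 min difference, which the interaction uses again. A difference that stands further out at 30 min is therefore favoured in advance. Some immediate early genes had a smaller difference at 4 h. *Egr3* went from 2.44 at 30 min to 0.60 at 1 h and -0.50 at 4 h (interaction 2.95, limma adjusted p = 6.28e-05), *Nr4a1* from 2.79 to 0.77 at 4 h and *Maff* from 2.34 to 0.57. Differences toward LPS that grew included *Cxcl10* (2.97 to 4.60), *Ccl5* (3.85 to 4.94) and *Il6*, which went from 0.48 to 2.18 at 1 h and 3.53 at 4 h (interaction -3.05, limma adjusted p = 2.91e-12).

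On the IL-4 side, the *Socs1* promoter went from -2.57 at 30 min to -1.23 at 1 h and 0.34 at 4 h (interaction -2.90, limma adjusted p = 6.45e-18), whereas *Socs2* stood at -2.15 and -2.03. *Arg1* (-3.72 and -3.02), *Mgl2* (-3.80 and -4.54) and *Clec10a* (-2.91 and -3.73) were called toward IL-4 at both times without a called interaction. Several promoters changed sides. *Ifit2* went from -1.45 to 2.38, *Irf7* from -1.21 to 1.49, *Stat2* from -1.16 to 1.12, *Itgam* from -2.20 to 1.36, *Fcgr1* from -1.47 to 1.36, *Edn1* from -1.61 to 1.39 and *Ch25h*, which makes 25-hydroxycholesterol, from -1.39 to 1.38, each with a called interaction.

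**Figure D4:**
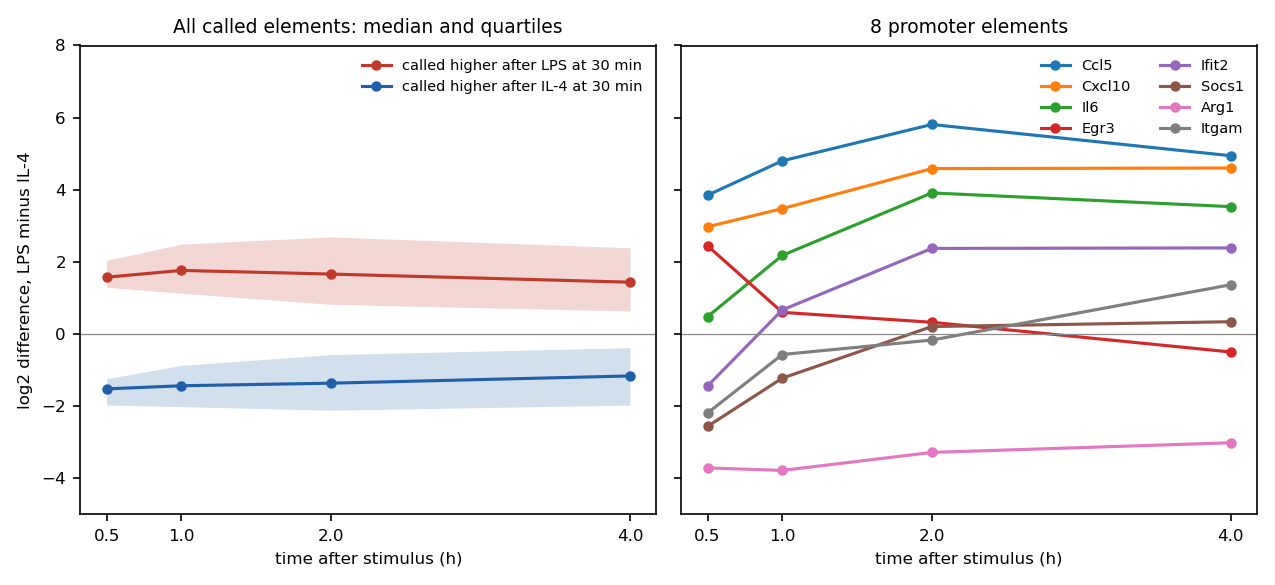
Log2 difference between LPS and IL-4 (vertical axis) by time after the stimulus (horizontal axis, h). The left panel gives the median and quartiles of the elements called at 30 min in each direction, and the right panel gives 8 promoter elements. *Arg1* goes from -3.72 to -3.02, *Egr3* falls from 2.44 to -0.50, and *Ifit2* and *Itgam* cross 0.

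The same difference was also read in cells kept with 1 of 58 kinase inhibitors in place of DMSO, in 122 libraries that the tests above did not use. Most compounds had 1 library per stimulus, so there is no test within a compound. The median over compounds had the direction found in DMSO at 6289 of 6302 elements higher after LPS and at 8432 of 8475 higher after IL-4. Single compounds kept it at 40.7% to 98.7% of the former (median 90.7%) and 73.7% to 99.3% of the latter (median 92.9%). Over all elements, the median compound had LPS higher at 47.3% and IL-4 higher at 51.9%. The correlation of a compound with DMSO across all elements ran from 0.28 to 0.82 (median 0.61). The ratio between the most and the least acetylated elements was lower in the inhibitor libraries (5.12 to 44.6) than in the 4 DMSO libraries (67.2 to 78.6). Its part in these correlations was not tested. Within single compounds, the elements higher after LPS had a median difference of 1.02 in the middle compound, with a range from -0.21 to 1.65. For the elements higher after IL-4 it was -1.07, from -1.76 to -0.63. In DMSO, where these elements were selected, the medians were 1.57 and -1.53. Smaller values in other libraries are therefore favoured in advance. The low end for LPS was PH797804, in which the median of all elements was -0.91 and whose LPS library had 12451 elements at 0, against 1180 and 351 in the DMSO libraries treated with LPS. The *Ptges*, *Rmi2* and *Pan3* elements and the *Ccl5*, *Cxcl10*, *Dusp2*, *Socs1*, *Arg1* and *Mgl2* promoters had the direction found in DMSO in 58 of 58 compounds. *Csf2* had it in 46 and *Ifnb1* in 56.

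**Figure D5:**
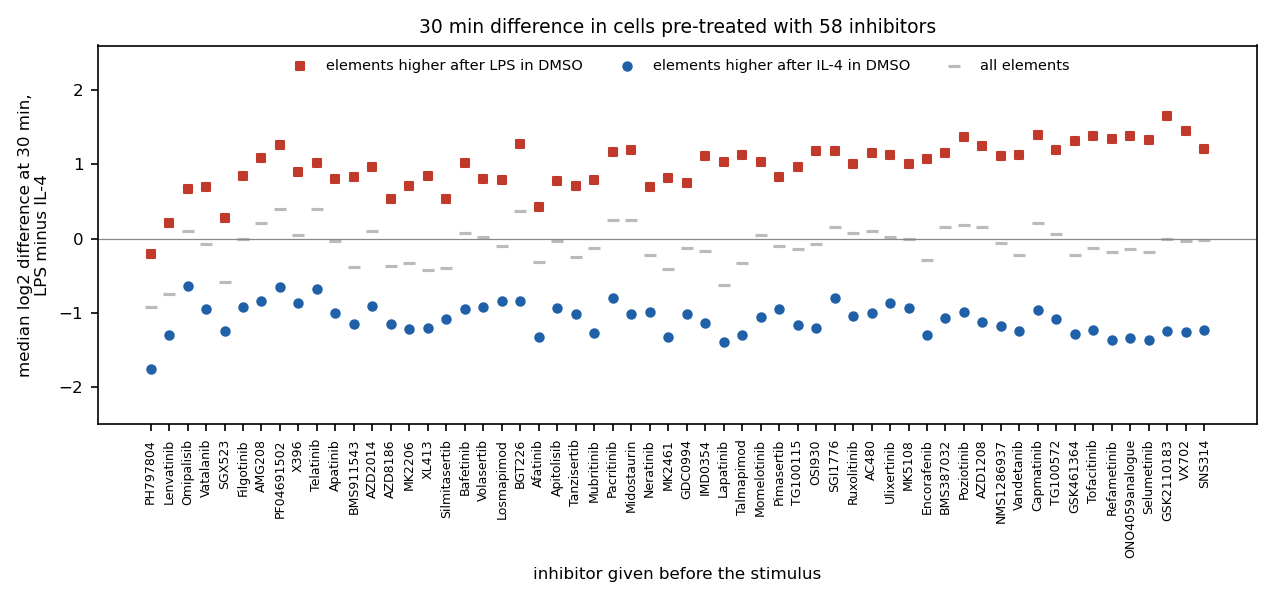
Median log2 difference between LPS and IL-4 at 30 min (vertical axis) in cells pre-treated with each of 58 inhibitors (horizontal axis, ordered by their correlation with DMSO across elements). Red squares are the elements higher after LPS in DMSO, blue circles those higher after IL-4 and grey dashes all elements. Red lies above blue for every compound.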

How the data were processed

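H3K27ac ChIP-seq of BMDMs was used. According to the methods, reads of 51 bases, cleared of adapters, were mapped by the authors to mm10 with ShortStack (Bowtie and SAMtools per the labels), counted around ATAC-seq summits and scaled on invariant peaks. The deposited score is this normalized read count, rounded to whole numbers by the authors, so no count model was fitted. Of 564 columns, 140 were used. Here log2(value + 5) was fitted with limma 3.58.1 (R 4.3.3), 1 mean per group, over 16 stimulated DMSO libraries, which share the estimate of the spread (8 residual and 26.6 prior degrees of freedom), with Benjamini-Hochberg adjustment over 59190 elements. Calls needed an adjusted p under 0.01 and an absolute difference over 1. Named were the 12 largest elements per direction (mean of at least 50, 1 per nearest gene, repeats passed over), up to 4 called promoters per list with the best known members, and the study's control regions. For the 12 largest, both libraries of the higher group had to exceed both of the other. Members called against their list's direction were named after their values were seen. The members and lists were chosen with earlier results of these data known. Some listed genes are counted but not reported here by name. The fit was tested on simulated data. Depth is given as estimated reads, with no interval.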

Additional observations from a re-analysis of the deposited data

Results flagged for a closer look

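Of the 115 elements and promoters named here, 49 had a difference between LPS and IL-4 at 30 min that was not the difference at 4 h (limma interaction, adjusted p under 0.01 and absolute log2 value over 1). Over all elements this share was 17.5%, and the items here were chosen for large differences at 30 min or as well known genes. The value in brackets is the log2 difference at 30 min minus that at 4 h, so it is positive where LPS stood higher relative to IL-4 at 30 min than at 4 h. Among the elements away from the listed promoters it was positive near *Ifitm10* (1.53), *Col27a1* (2.05), *Fam129c* (2.72) and *Il1rl2* (1.30), and negative near *Jak2* (-1.39), *Tnfaip3* (-1.29), *Rmi2* (-5.20), *Socs1* (-1.38), *Gtpbp4* (-3.25), *Myc* (-1.19) and *Gm5150* (-5.15). Promoters with a positive value were those of *Nfkbib* (1.01), *Relb* (1.03), *Lif* (2.02), *Nr4a1* (2.02), *Egr3* (2.95), *Maff* (1.78), *Egr2* (1.58), *Stat6* (1.19), *Irf4* (1.92) and *Cebpa* (1.79). The promoters of *Tab2* (-1.15), *Nfkbia* (-1.78), *Tnfaip3* (-1.0016), *Edn1* (-3.00), *Il6* (-3.05), *Il1b* (-1.48), *Ccl5* (-1.10), *Cxcl10* (-1.63) and *Cxcl2* (-1.40) had negative values. Negative values were also found for *Ccl2* (-1.40), *Ccl3* (-1.24), *Ccl4* (-1.91), *Ptgs2* (-1.46), *Ifit2* (-3.83), *Irf7* (-2.69), *Stat2* (-2.28), *Isg15* (-1.49) and *Mx1* (-3.40). The rest of the negative values belonged to *Socs1* (-2.90), *Il4ra* (-1.55), *Socs3* (-1.83), *Ch25h* (-2.77), *Mertk* (-1.53), *Itgam* (-3.56), *Maf* (-1.61), *Fcgr1* (-2.84), *Adgre1* (-1.05) and *Prtn3* (-1.59). Groups of 2 libraries are too small to test for a single library that stands apart.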

How the results depend on the processing

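The counts of called elements stayed within 1.5 times under all alternatives run (another fit set, pseudocount, filter, scaling, moderation, threshold or a left-out library). Leaving out 1 library gave 12797 to 13789 calls, 5002 to 5905 higher after LPS, 7031 to 8748 higher after IL-4 and 8979 to 9725 for the interaction. The numbers of the replicates do not pair the libraries (correlation of deviations -0.01), and the fit with the replicate block called 14749 elements, 6290 higher after LPS and 8459 after IL-4, with 10314 interactions. Of 84 called elements and promoters named here, 77 were called under all 13 settings and 0 turned. Motif shares in the central 150 bases were lower for every motif, since the window is shorter. They fell by more than 1.5 times for kappaB (0.661% higher after IL-4, 1.41% of all), STAT (4.52% after LPS, 7.62% after IL-4, 4.62% of all), STAT6-type (3.33%, 13.0% and 4.98%) and ISRE (2.92%, 3.04% and 2.71%). They fell by less for kappaB after LPS (3.95%), AP-1 (21.2%, 11.2% and 15.2%) and PU.1 (25.2%, 33.2% and 27.6%). Uncalled promoters changed sign. With quantile normalization *Ly96* had -0.043, *Ccl4* -0.041, *Egr2* -0.11, *Cish* 0.067, *Spi1* -0.18 and *Csf1r* -0.27, and with median rescaling *Cish* had 0.047. Leaving out 1 library at 30 min gave *Ly96* -0.044 to 0.092, *Il10* -0.00376 to 0.096, *Fos* -0.062 to 0.193, *Dusp1* -0.11 to 0.33, *Cish* -0.17 to 0.11, *Irf4* -0.80 to 0.081 and *Csf1r* -0.091 to 0.11. The cause was not tested. The limit of depth is greatest for elements of few reads, such as *Csf2*.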

Other observations

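The elements and genes below were chosen after their values were seen. Some regions held many elements that differed in 1 direction. Of 38 elements nearest to *Nfkbiz*, a nuclear cofactor of NF-kB, 28 were higher after LPS and 1 after IL-4. The region of *Hlx*, a homeobox factor, had 19 of 28 elements higher after IL-4 and 0 after LPS, and *Fyn*, a Src family kinase, had 18 of 24 and 0. Over all elements these shares were 10.6% toward LPS and 14.3% toward IL-4.

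A small set of elements was called in opposite directions at 30 min and 4 h. The element near *Slfn1*, a gene of the Schlafen family (chr11:83124266-83125862), had 8 and 16 after LPS and 73 and 59 after IL-4 at 30 min, a difference of -2.10 that stood at 4.74 at 4 h. Another element of *Rmi2* (chr16:10836687-10839809) went from -4.46 to 1.03. In the other direction, the element near *Msl1* (chr11:98785137-98787833) had 444 and 462 after LPS and 101 and 75 after IL-4, and its difference went from 2.31 to -1.45, while one near *Nr1d1*, a nuclear receptor of the circadian clock, went from 1.73 to -1.65.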
